A study of Mus musculus with 6 samples.

Results

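Articular cartilage was examined for 10 genes of the interleukin-1 (IL-1) family and its receptors, *Il1a*, *Il1b*, *Il1rn*, *Il1r1*, *Il1r2*, *Il1rap*, *Il18*, *Il18rap*, *Il33* and *Il1rl1*. They were picked by name from a table of 33971 mouse genes, and all 10 were found and passed edgeR's filter on low counts. RNA was sequenced from 6 libraries of cartilage from wildtype (WT) mice, 3 from animals aged 2 months and 3 from animals aged 18 months, and no treatment is given for either age. The study's methods describe its samples as independent without saying whether each library came from 1 animal or a pool, so p-values measure the spread between these libraries. The libraries held 48171507 to 59085179 counts.

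Members of this family are secreted or nuclear cytokines that act on receptors with a shared intracellular domain. IL-1α and IL-1β bind the receptor encoded by *Il1r1*, which then pairs with the accessory protein of *Il1rap* and signals through MyD88 to NF-κB and MAP kinases, whereas the *Il1rn* product occupies the receptor without signalling and the *Il1r2* product is a decoy that binds the cytokine and cannot signal. IL-18 and IL-33 use related receptor pairs, and in cartilage IL-1 is known as a stimulus that makes chondrocytes produce prostaglandins and matrix-degrading proteases.

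The libraries differed in more than these genes. The summed level of 11 chondrocyte markers was 12498 to 16290 FPKM (fragment counts scaled by transcript length and library size) at 2 months and 328 to 1650 FPKM at 18 months. All 11 were called lower, as were 21.3% of all genes tested. Summed levels of neutrophil, monocyte and erythroid markers were higher at 18 months, and 2-month replicate 2 stood apart from the other 2-month libraries. The summed FPKM of 12 neutrophil markers was 8.99, 3669.8 and 58.1 in 2-month replicates 1, 2 and 3, against 42262 to 47219 at 18 months. For 10 monocyte and macrophage markers the sums were 6.59, 161.6 and 36.3 against 600 to 608 FPKM, and for 8 erythroid markers 231, 6121 and 651 against 25269 to 33803 FPKM. The 8 B lymphocyte markers summed to 1.74, 98.2 and 2.48 FPKM at 2 months and 68.0 to 83.0 FPKM at 18 months, so replicate 2 was above every 18-month library. The study's methods describe male mice, while *Xist*, the RNA of the inactive X chromosome in females, was counted 88239 to 102417 times at 2 months and 11 to 30 times at 18 months, so sex and age cannot be told apart here. Calls of the members and of the marker lists are given with and without 2-month replicate 2.

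Stretches upstream of 4 start sites are shown because *Il1a*, *Il1b* and *Il18rap* were among the members called higher while *Il1r1*, of the same group of receptor genes on chromosome 1 as *Il18rap*, was not. RefSeq sequence (GRCm38.p6) was found for 10 of 10 members. Each line gives the 250 bases before the start on the gene's own strand, from chr2:129309973-129310222 (minus strand) for *Il1a*, chr2:129371140-129371389 (minus) for *Il1b*, chr1:40515112-40515361 (plus) for *Il18rap* and chr1:40224830-40225079 (plus) for *Il1r1*. Capitals mark matches to an AP-1 motif (TGANTCA), a PU.1 motif (GAGGAAG) or a C/EBP motif (TTGCNNAA), searched on both strands.
Il1a: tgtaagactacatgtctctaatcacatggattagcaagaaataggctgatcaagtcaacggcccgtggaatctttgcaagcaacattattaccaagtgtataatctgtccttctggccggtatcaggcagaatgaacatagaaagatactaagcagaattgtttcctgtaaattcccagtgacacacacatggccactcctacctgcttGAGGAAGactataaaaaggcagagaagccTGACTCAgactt
Il1b: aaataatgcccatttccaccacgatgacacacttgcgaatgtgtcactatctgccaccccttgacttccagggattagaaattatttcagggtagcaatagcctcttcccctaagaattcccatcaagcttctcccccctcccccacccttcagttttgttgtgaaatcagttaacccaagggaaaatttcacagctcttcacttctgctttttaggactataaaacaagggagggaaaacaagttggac
Il18rap: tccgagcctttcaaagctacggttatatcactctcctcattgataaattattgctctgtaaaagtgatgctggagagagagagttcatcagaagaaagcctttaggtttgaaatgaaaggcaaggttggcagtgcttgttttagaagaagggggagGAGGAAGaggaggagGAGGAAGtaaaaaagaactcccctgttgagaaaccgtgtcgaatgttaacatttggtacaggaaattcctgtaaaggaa
Il1r1: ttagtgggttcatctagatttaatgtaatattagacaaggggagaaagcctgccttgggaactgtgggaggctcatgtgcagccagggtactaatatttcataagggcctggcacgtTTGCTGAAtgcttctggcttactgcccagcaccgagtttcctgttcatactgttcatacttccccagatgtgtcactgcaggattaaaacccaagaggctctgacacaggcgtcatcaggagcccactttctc

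The *Il1a* stretch held a PU.1 match at −41 to −35 and an AP-1 match at −12 to −6, counted from the start site. *Il18rap* held PU.1 matches at −94 to −88 and −79 to −73, inside a run rich in G and A, and *Il1r1* held a C/EBP match at −133 to −126. In *Il1b* none of the 4 motifs searched, the fourth being NF-κB, was found. Among members not shown, *Il1rl1*, also called higher, held a C/EBP match at −34 to −27. *Il1rn*, not called, held an AP-1 match at −141 to −135. For *Il1r2*, called higher, no match was found before its only listed start, which lies 12014 bases inside the gene. Over the window nearest to each member's start, PU.1, AP-1 and C/EBP matches each occurred in 2 of 10 members and NF-κB matches in 0, where 10.6%, 6.75%, 9.56% and 7.25% of 32851 mouse windows of the same length held them. Those mouse windows include alternative starts of a gene. An alternative start of *Il1r1*, inside the gene, held an NF-κB match at −232 to −223. These are matches of letters, and no binding was measured.

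Of the 10 members, 5 were higher at 18 months (*Il1a*, *Il1b*, *Il1r2*, *Il18rap* and *Il1rl1*) and 0 were lower. Calls required an adjusted p (Benjamini-Hochberg, edgeR's quasi-likelihood test) below 0.05 together with a log2 fold change beyond 1 in either direction. By this rule 14.9% of the 20397 genes tested were higher and 21.3% lower, 36.3% in all. In DESeq2 also 5 members were higher and 0 lower, and 0 members were lower at an unadjusted p below 0.05 in edgeR. The median log2 fold change was 3.76 over the members and −0.02 over all genes tested. In 8 of 10 members every 18-month library lay above every 2-month library in FPKM, as did 35.6% of genes tested, in 0 of 10 every 18-month library lay below, as did 32.8% of genes, and the ages overlapped in *Il1r1* and *Il33*. Leaving out 1 library moved the number of members called from 5 to between 2 and 6, with 2 left without 18-month replicate 2 or 3, 3 left without 18-month replicate 1 or 2-month replicate 3, and 6 found without 2-month replicate 2. Over all genes the share called higher in these fits was 9.81% to 23.3%, the highest without 2-month replicate 2. In tissue RNA a change in the share of cells that carry a transcript and a change in RNA per cell cannot be told apart.

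**Figure D1:**
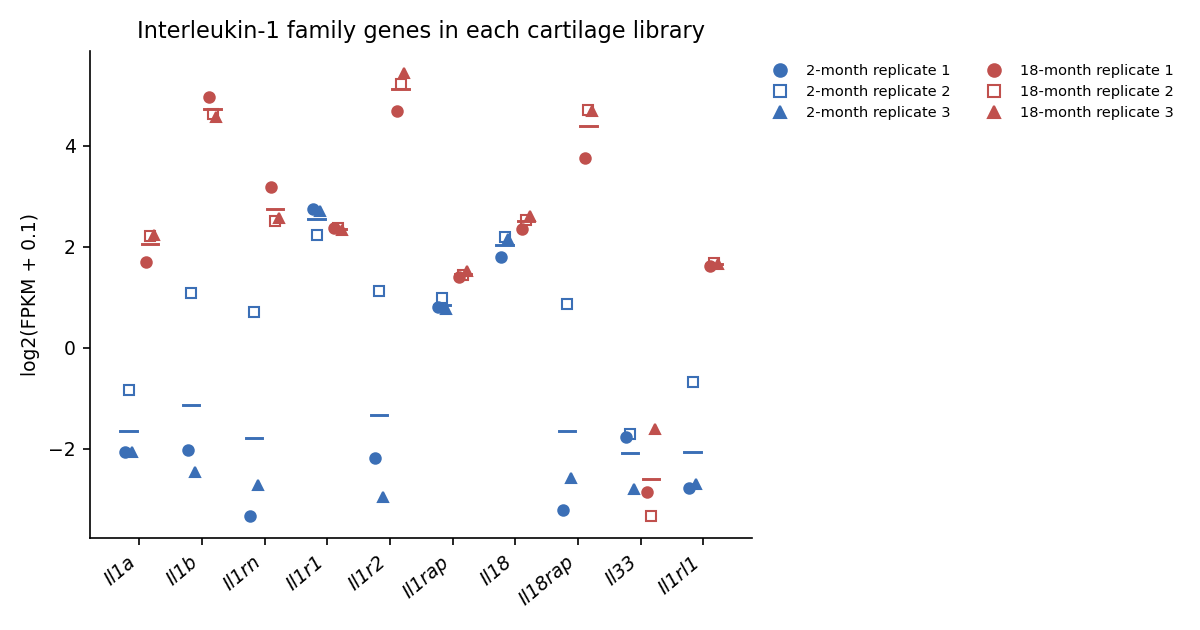
Level of each member, as log2(FPKM + 0.1), in the 3 libraries of 2-month cartilage (blue) and the 3 of 18-month cartilage (red), with symbols for replicates and bars for the mean of each age on this scale. *Il1b*, *Il1r2* and *Il18rap* separate widest by age, 2-month replicate 2 (open blue squares) is the highest 2-month library in 9 of 10 members, and *Il1r1* lies at a similar level at both ages.

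The agonist *Il1b* (ENSMUSG00000027398, chr2:129364570-129371139, GRCm38, minus strand) encodes the precursor of the secreted cytokine IL-1β. Its level was 0.148, 2.03 and 0.0822 FPKM in 2-month replicates 1, 2 and 3 and 31.2, 24.6 and 23.7 FPKM in the 18-month libraries. All 18-month libraries were far above the 2-month ones, among which replicate 2 was the highest. The mean rose from 0.754 ± 1.11 to 26.5 ± 4.07 FPKM (SD, n = 3 each), a log2 fold change of 5.10 with a standard error (SE) of 1.25 and an edgeR adjusted p of 0.0183. The call was kept whichever library was left out, with fold changes of 4.58 to 7.64, the highest without 2-month replicate 2. Without any one of the 18-month libraries the edgeR adjusted p was 0.0480 to 0.0493, just under the threshold of 0.05. An antisense transcript, *Il1bos*, overlaps *Il1b* and had 23 to 103 counts, and how strand was used in counting is not given in the sources used here.

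*Il1a* (ENSMUSG00000027399, chr2:129299610-129309972, minus strand), 54.6 kb from *Il1b*, encodes IL-1α, which is active as a precursor and can act in the nucleus. It had 0.140, 0.460 and 0.140 FPKM at 2 months and 3.16, 4.52 and 4.60 FPKM at 18 months. The ages did not overlap, and the 2-month replicates 1 and 3 had the same 16 counts each. The log2 fold change was 3.97 (SE 0.55, edgeR adjusted p = 0.0031), from 0.247 ± 0.185 to 4.09 ± 0.810 FPKM (SD, n = 3 each). It was called in 6 of 6 fits that left out 1 library, at 3.71 to 4.71, and in 9 of 9 other alternatives.

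*Il1rn* (ENSMUSG00000026981, chr2:24336853-24351494, plus strand), the receptor antagonist, lies far from both agonists on the same chromosome. It was listed at 0, 1.53 and 0.0532 FPKM at 2 months, from 0, 495 and 17 counts, and at 8.96, 5.61 and 5.80 FPKM at 18 months. The 0 counts of 2-month replicate 1 allow up to 0.0621 CPM (3 counts over the library's total, scaled to a fixed library size), a limit that covers counting error only. Replicate 2 carried nearly the whole 2-month level, yet it stayed below each 18-month library. With a log2 fold change of 3.68 (SE 1.76, edgeR adjusted p = 0.126) *Il1rn* was not called. Without 2-month replicate 2 it was 7.82 with an edgeR adjusted p of 0.00074.

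*Il18* (ENSMUSG00000039217, chr9:50554827-50581840, plus strand) encodes the cytokine that induces interferon-γ in lymphocytes. Its levels of 3.36, 4.47 and 4.33 FPKM at 2 months and 5.01, 5.69 and 6.02 FPKM at 18 months differed less between the ages than those of the IL-1 agonists. The ranges did not overlap, but the log2 fold change of 0.39 (SE 0.21) had an edgeR adjusted p of 0.166. After rescaling to TPM, in which every library has the same summed level, and which moved the median over all genes to −0.33, it was 0.03.

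*Il33* (ENSMUSG00000024810, chr19:29925114-29960718, plus strand), a nuclear cytokine released from damaged cells, had the lowest mean FPKM of the members at both ages. It was not the lowest in 2-month replicates 1 and 3, where *Il1rn* at 0 and *Il1r2* at 0.0296 FPKM, respectively, were below it. It had 32, 36 and 8 counts at 2 months and 8, 0 and 43 counts at 18 months, at most 0.228 FPKM in any library. The libraries overlapped, and the log2 fold change of −0.80 (SE 1.37, edgeR adjusted p = 0.649) ranged from −2.93 to −0.22 when 1 library was left out. The 0 counts of 18-month replicate 2 allow up to 0.0543 CPM, and the 18-month libraries differed widely among themselves.

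*Il1r1* (ENSMUSG00000026072, chr1:40225080-40317257, plus strand), the signalling receptor for IL-1α and IL-1β, was the member with the highest mean level in 2-month cartilage. It had 6.57, 4.58 and 6.40 FPKM at 2 months and 5.05, 5.05 and 4.95 FPKM at 18 months. Replicate 2 was the lowest 2-month library and the 18-month libraries lay between it and the others. The mean was 5.85 ± 1.10 and 5.02 ± 0.0562 FPKM (SD, n = 3 each), and the log2 fold change of −0.31 (SE 0.19) had an edgeR adjusted p of 0.216. Without 2-month replicate 2 it was −0.47 with an edgeR adjusted p of 0.0052, still under the limit of 1, and after rescaling to TPM −0.63 with a limma adjusted p of 0.0196.

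*Il1r2* (ENSMUSG00000026073, chr1:40074079-40125231, plus strand), the decoy receptor, had the largest fold change of the 10 members in edgeR with all 6 libraries. Its level was 0.121, 2.07 and 0.0296 FPKM in the 2-month libraries, from 13, 232 and 4 counts, and 25.7, 37.4 and 43.2 FPKM at 18 months, from 3302, 4486 and 5261 counts. Every 18-month library exceeded every 2-month one, and replicate 2 was again the highest at 2 months. The mean rose from 0.741 ± 1.15 to 35.4 ± 8.91 FPKM (SD, n = 3 each), a log2 fold change of 5.57 (SE 1.46, edgeR adjusted p = 0.023). It was 8.68 without 2-month replicate 2, and the adjusted p was 0.0603 and 0.0625 without 18-month replicate 2 and 3. An unclassified transcript on the same strand, *Gm37347*, overlaps *Il1r2* and had 0, 0 and 4 counts at 2 months and 63, 73 and 74 at 18 months.

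*Il1rap* (ENSMUSG00000022514, chr16:26581704-26730117, plus strand), the accessory chain shared by the IL-1 and IL-33 receptors, was measured with little spread. It had 1.64, 1.89 and 1.60 FPKM at 2 months and 2.55, 2.62 and 2.78 FPKM at 18 months. The ranges did not overlap, and the log2 fold change of 0.56 (SE 0.10) had an edgeR adjusted p of 0.0073 but lay under the limit of 1. After rescaling to TPM the difference was 0.20, with a limma adjusted p of 0.381.

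*Il1rl1* (ENSMUSG00000026069, chr1:40429570-40448148, plus strand), the IL-33 receptor also called ST2, had 0.0460, 0.525 and 0.0542 FPKM at 2 months and 2.96, 3.10 and 3.05 FPKM at 18 months. The 18-month libraries were nearly alike and all above the 2-month ones, where replicate 2 was the highest. The log2 fold change was 3.84 (SE 0.99, edgeR adjusted p = 0.0222), from 0.208 ± 0.274 to 3.04 ± 0.0709 FPKM (SD, n = 3 each), and 5.76 without 2-month replicate 2. With 1 library left out the call held in 2 of 6 fits, and the adjusted p was 0.0529 to 0.0591 without 2-month replicate 3 or any one of the 18-month libraries.

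*Il18rap* (ENSMUSG00000026068, chr1:40515362-40551705, plus strand), the accessory chain of the IL-18 receptor, had 0.00870, 1.72 and 0.0670 FPKM at 2 months, from 4, 680 and 26 counts, and 13.4, 26.0 and 25.7 FPKM at 18 months. The ages did not overlap, and both ages had 1 library apart, replicate 2 above the others at 2 months and replicate 1 below the others at 18 months. The log2 fold change of 5.19 (SE 1.74) passed with an edgeR adjusted p of 0.0497. It was 8.99 without 2-month replicate 2 (adjusted p = 0.00038), and in the fits that each left out another library the adjusted p was 0.0525 to 0.115, so the call held in 1 of 6.

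**Figure D2:**
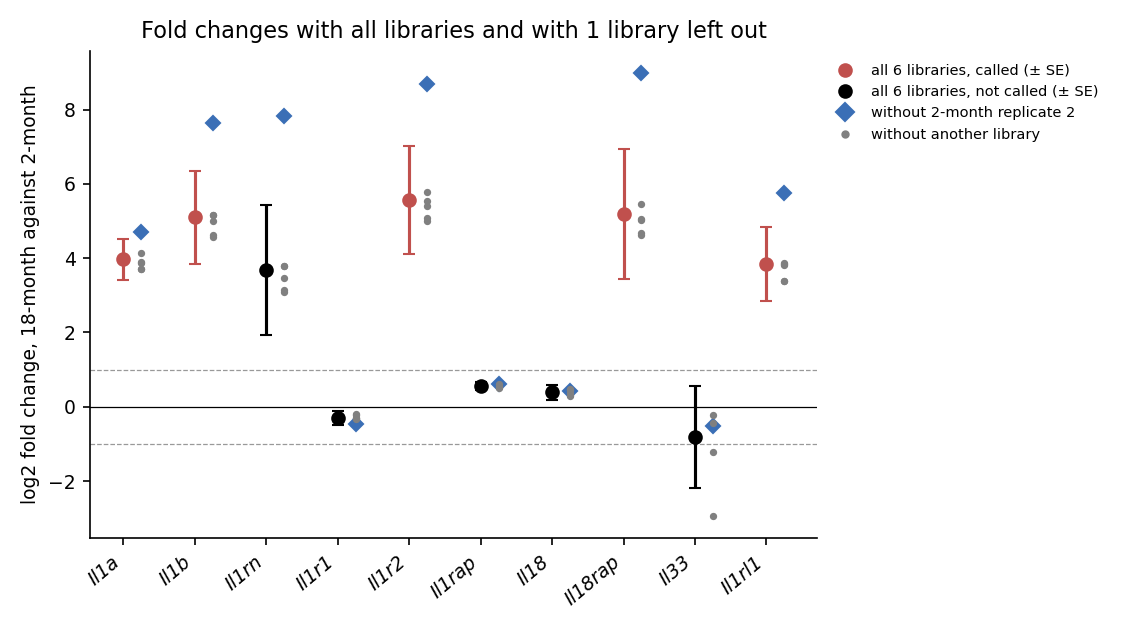
Log2 fold change of each member, 18-month against 2-month, from edgeR with all 6 libraries (large points with SE bars, red where called) and with 1 library left out (small points to the right, blue diamonds for the fit without 2-month replicate 2), with dashed lines at the limits of 1 and −1. Without 2-month replicate 2, *Il1rn*, *Il1r2* and *Il18rap* reach 7.82, 8.68 and 8.99, while *Il1rap* and *Il18* stay under 1.

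The order of the members by mean FPKM changed with age. At 2 months it ran *Il1r1*, *Il18*, *Il1rap*, *Il1b*, *Il1r2*, *Il18rap*, *Il1rn*, *Il1a*, *Il1rl1* and *Il33*, and from *Il1rap* downward the range over libraries overlapped that of the next gene. At 18 months it ran *Il1r2*, *Il1b*, *Il18rap*, *Il1rn*, *Il18*, *Il1r1*, *Il1a*, *Il1rl1*, *Il1rap* and *Il33*, with overlaps between *Il1r2* and *Il1b*, *Il1b* and *Il18rap*, *Il1rn* and *Il18*, and *Il18* and *Il1r1*. The summed FPKM of the 10 members was 12.2, 19.5 and 12.8 at 2 months and 98.1, 115 and 120 at 18 months. The signalling receptor *Il1r1* made up 53.7%, 23.5% and 50.0% of this sum in the 2-month libraries and 4.13% to 5.15% at 18 months, and the decoy *Il1r2* made up 0.987%, 10.6% and 0.232% and then 26.2% to 36.0%.

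Ratios within a library depend little on how libraries are scaled, apart from the value added before division. The decoy-to-receptor ratio *Il1r2*/*Il1r1*, computed on FPKM + 0.1, was 0.0331, 0.464 and 0.0200 in the 2-month libraries and 5.02, 7.27 and 8.57 in the 18-month libraries. The decoy was thus below the signalling receptor in each 2-month library and above it in each 18-month one, and the means differed by 6.65 on the log2 scale. The agonist-to-antagonist ratio *Il1b*/*Il1rn* was 2.48, 1.31 and 1.19 against 3.45, 4.33 and 4.04, a log2 difference of 1.32. With 0.01 added in place of 0.1 that difference was 0.34 with an exact permutation p of 1.0, since *Il1rn* had 0 counts in 2-month replicate 1 and the value added sets its ratio there, so the separation of the ages in this ratio rests on the value added. *Il1b*/*Il1a* was 1.03, 3.81 and 0.758 against 9.60, 5.35 and 5.07, and *Il33*/*Il1rl1* 2.02, 0.494 and 0.936 against 0.0452, 0.0312 and 0.104. *Il18bp*, whose product binds and neutralises IL-18, stood at 0.524, 0.607 and 0.513 of *Il18* at 2 months and at 1.03, 1.15 and 1.21 at 18 months. With 0.1 added, the ages did not overlap in these 5 ratios, and each two-sided exact permutation p was 0.1, also after Benjamini-Hochberg adjustment over the 5, which is the smallest value that 3 libraries against 3 can give.

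The receptor genes lie together on chromosome 1, in the order *Il1r2*, *Il1r1*, *Il1rl2*, *Il1rl1*, *Il18r1* and *Il18rap* over 478 kb (chr1:40074079-40551705). Of these 6 genes 4 were higher at 18 months, where 14.9% of all genes tested were higher. With 1 library left out the calls of *Il1r2*, *Il1rl1* and *Il18rap* held in 4, 2 and 1 of 6 fits. The log2 fold changes along the order were 5.57, −0.31, 2.59, 3.84, 4.08 and 5.19. *Il1r1*, 99.8 kb from *Il1r2* and 7.35 kb from *Il1rl2*, was the only one of the 6 with a negative value. *Il18r1*, the ligand-binding chain of the IL-18 receptor, rose from 0.196 ± 0.212 to 3.44 ± 0.0875 FPKM (SD, n = 3 each, edgeR adjusted p = 0.0109), and *Il1rl2*, the IL-36 receptor, was not called (edgeR adjusted p = 0.0668).

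In a wider list of 21 family and receptor genes, 16 were tested, with a median log2 fold change of 3.31. Of these, 7 were higher and 0 lower, against 14.9% higher and 21.3% lower over all genes tested. Beside the 5 members these were *Il18r1* and *Il18bp*, which rose from 2.18 ± 0.480 to 6.33 ± 1.09 FPKM (SD, n = 3 each, log2 fold change 1.47, edgeR adjusted p = 0.0039). *Il36g*, a cytokine of epithelia and myeloid cells listed as *Il1f9*, had 1.24 ± 2.05 and 25.4 ± 7.45 FPKM (SD, n = 3 each) with an edgeR adjusted p of 0.0834. The inhibitory receptor gene *Sigirr* had 0.546 and 4.21 FPKM on average with an edgeR adjusted p of 0.169. Without 2-month replicate 2, 11 genes of this list were higher, as in limma on log2(FPKM + 0.1), and DESeq2 gave 8, whereas 4 were called without 18-month replicate 2 or 3. *Il36a*, *Il36rn* and *Il1f10* were not analysed here.

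Of 14 inflammasome and protease genes that act on the cytokine precursors or their release 13 were tested, 7 were higher and 1 was lower, against 14.9% higher and 21.3% lower over all genes tested, with a median log2 fold change of 3.21. *Nlrp3*, the sensor of the best-known inflammasome, rose from 0.307 to 5.18 FPKM (log2 fold change 4.04, SE 0.94, edgeR adjusted p = 0.0159). *Nlrc4*, which encodes a component of another inflammasome, changed by 3.24 (SE 0.90, edgeR adjusted p = 0.0285). *Casp1*, the protease that cleaves the IL-1β and IL-18 precursors, rose from 1.20 to 11.3 FPKM, by 3.21 (SE 0.80, edgeR adjusted p = 0.0194). The gene that fell was *Capn2*, a calpain, by 1.49 on the log2 scale from 42.0 to 16.0 FPKM (edgeR adjusted p = 0.012). The most abundant, the neutrophil protease *Elane*, had 19.8 ± 34.2 and 635 ± 29.7 FPKM (SD, n = 3 each) with an edgeR adjusted p of 0.146, and it also stands among the 12 neutrophil markers. The number called was 4 without 2-month replicate 3 and 5 without 18-month replicate 2 or 3. Over all genes the share called in these fits was 26.4% and, for each of the last 2, 27.1%.

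Of 32 signalling genes downstream of the receptors, all tested, 5 were higher and 1 was lower, where 14.9% of all genes tested were higher and 21.3% lower, with a median log2 fold change of 0.44. *Irak3*, an inhibitory kinase homologue that restrains MyD88 signalling, rose from 2.45 ± 0.294 to 11.8 ± 0.768 FPKM (SD, n = 3 each, log2 fold change 2.19, edgeR adjusted p = 0.00071). *Mapk14*, the p38α kinase and the most abundant gene of this list, rose by 1.87 from 14.3 to 54.4 FPKM (edgeR adjusted p = 0.0029). *Myd88*, the adaptor shared by these receptors, rose by 1.67 from 9.19 to 30.7 FPKM (edgeR adjusted p = 0.0018). The others called were *Irak4* (1.58) and *Tab3* (1.11), and *Peli3*, a ubiquitin ligase, fell by 2.82 on the log2 scale (edgeR adjusted p = 0.0055), these 3 being named after their values were seen.

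Genes known to respond to IL-1 were called in both directions, and so was the whole set of tested genes, with 14.9% rises and 21.3% falls. Of 24 listed, 20 were tested, 6 were higher and 4 lower, with a median log2 fold change of 0.72. *Ptgs2* and *Ptges*, which make prostaglandin E2, fell by 3.87 and 3.06 on the log2 scale, from 4.83 to 0.351 FPKM and from 12.9 to 1.64 FPKM (edgeR adjusted p = 0.00295 and 0.00172). *Hif1a*, the oxygen-regulated transcription factor, fell by 1.82 on the log2 scale from 54.4 to 16.3 FPKM (edgeR adjusted p = 0.0012), and the collagenase *Mmp13*, named after its values were seen, fell from 562 to 206 FPKM (edgeR adjusted p = 0.0135). Among the 6 higher genes, only the neutrophil-attracting chemokine *Cxcl5* reached a mean of 1 FPKM over all 6 libraries, with 0.043 and 2.67 FPKM (log2 fold change 5.80, SE 1.44, edgeR adjusted p = 0.0195). *Cxcl2*, a related chemokine named after its values were seen, had 0, 0 and 3 counts at 2 months and 123, 227 and 252 at 18 months (edgeR adjusted p = 0.00402). The most abundant, *Lcn2*, an iron-binding protein that is also one of the neutrophil markers, had 25.3 ± 41.0 and 810 ± 9.998 FPKM (SD, n = 3 each) with an edgeR adjusted p of 0.0506. The number called was 6 in place of 10 without 18-month replicate 2 or 3, where 27.1% of all genes were called in each fit. As all 11 chondrocyte markers were lower too, the part of cell composition in these falls was not tested.

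**Figure D3:**
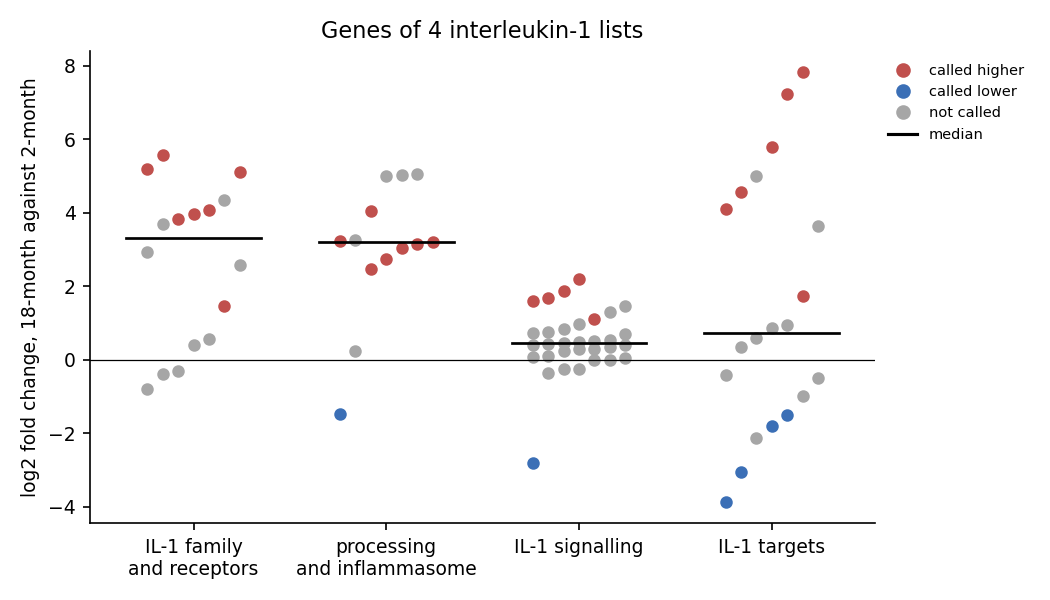
Log2 fold change, 18-month against 2-month, of each tested gene of 4 lists (family and receptors, precursor processing, signalling, IL-1 responsive genes), red where called higher, blue where called lower and grey where not called, with black lines at the list medians of 3.31, 3.21, 0.44 and 0.72. The family list has 0 genes called lower, and the responsive genes spread to both sides of 0.

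Marker genes of other cells were tested in the same fit, in which 14.9% of all genes tested were higher and 21.3% lower. None of the 12 neutrophil markers was at 0 in all libraries of an age, and 0 of 12 were called by edgeR, with a median log2 fold change of 4.96 and 2 at an unadjusted p below 0.05, while DESeq2 called 10 and limma on log2(FPKM + 0.1) all 12. Of 10 monocyte and macrophage markers 3 were higher, of 10 T and NK lymphocyte markers 5, of 8 tested mast cell and basophil markers 4, of 8 erythroid markers 2 and of 8 B lymphocyte markers 0. The 4 mast cell and basophil markers were *Cpa3*, *Kit*, *Fcer1a* and *Gata2*. In that list *Cma1* changed by 0.23 on the log2 scale (edgeR adjusted p = 0.858). *Mcpt4*, not tested, had 0, 0 and 53 counts at 2 months and 7, 0 and 4 at 18 months, and *Tpsb2* was at 0 in every 18-month library. Of 7 endothelial markers 0 were called, of 9 fibroblast markers 2 were higher and 4 lower, and of 7 osteoblast and osteocyte markers 3 were lower. Without 2-month replicate 2, edgeR called higher 12 neutrophil, 10 monocyte and macrophage, 10 T and NK lymphocyte, 7 mast cell and basophil, 8 erythroid, 7 B lymphocyte and 6 endothelial markers. In that fit 4 fibroblast markers were higher and 2 lower, 2 osteoblast and osteocyte markers were higher and 3 lower, and all 11 chondrocyte markers were lower. Over all genes tested in that fit 23.3% were higher and 21.3% lower. The excess of 2-month replicate 2 over the mean of the other 2-month libraries was 57.3-fold for *Il1rn*, 45.4-fold for *Il18rap*, 27.6-fold for *Il1r2*, 17.7-fold for *Il1b*, 10.5-fold for *Il1rl1* and 3.28-fold for *Il1a*, against 1.17-fold for *Il1rap*, 1.16-fold for *Il18* and 0.707-fold for *Il1r1*.

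The members were also set against the neutrophil markers. Per 1000 counts of the 12 markers, *Il1b* had 1.18 counts in 2-month replicate 2 and 1.62, 1.19 and 1.17 in the 18-month libraries. *Il1r2* had 1.20 and then 1.34, 1.81 and 2.13, and *Il18rap* had 3.53 and then 2.48, 4.47 and 4.47. For *Il1b* and *Il18rap* 2-month replicate 2 fell within the 18-month range. *Il1a* had 0.280 and then 0.170 to 0.234, *Il1rn* 2.57 and then 0.791 to 1.35, and *Il1rl1* 1.11 and then 0.543 to 0.558. *Il1r1*, in contrast, had 8.87 and then 0.812 to 0.877. In 2-month replicates 1 and 3 the markers were scarce, down to 634 counts, and *Il1b* had 26.8 and 3.20 per 1000, from 17 and 9 counts. *Il18rap* had 6.31 and 9.24 there, from 4 and 26 counts, and both genes lay above every 18-month library. *Il1r2* had 20.5 and 1.42, from 13 and 4 counts, above and within the 18-month range. The same ratio was taken to the other marker lists. Per 1000 counts of the monocyte and macrophage markers, *Il1b* had 8.66 in 2-month replicate 2 and 29.7 to 37.6 at 18 months, *Il1r2* 8.81 and 31.0 to 54.2, and *Il18rap* 25.8 and 57.3 to 115, so the ages did not overlap in these libraries. Per 1000 counts of the mast cell and basophil markers *Il1b* had 80.8 in 2-month replicate 2 and 122 to 158 at 18 months. *Il1r2* had 82.2 and 131 to 224, and *Il18rap* 241 and 242 to 470. *Il1rn*, with 175 and 81.0 to 132, and *Il1rl1*, with 75.5 and 54.4 to 57.1, were higher in the 2-month library. Per 1000 of the T and NK lymphocyte markers *Il1b* had 226 and 371 to 419, while *Il18rap* had 673 and 639 to 1421, within the 18-month range. In 2-month replicate 1, with 103 and 39 marker counts, *Il1b* had 165 and 436 per 1000, above every 18-month library, and in replicate 3 it had 33.2 and 123. The part of cells other than chondrocytes in the members' rise was not tested.

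**Figure D4:**
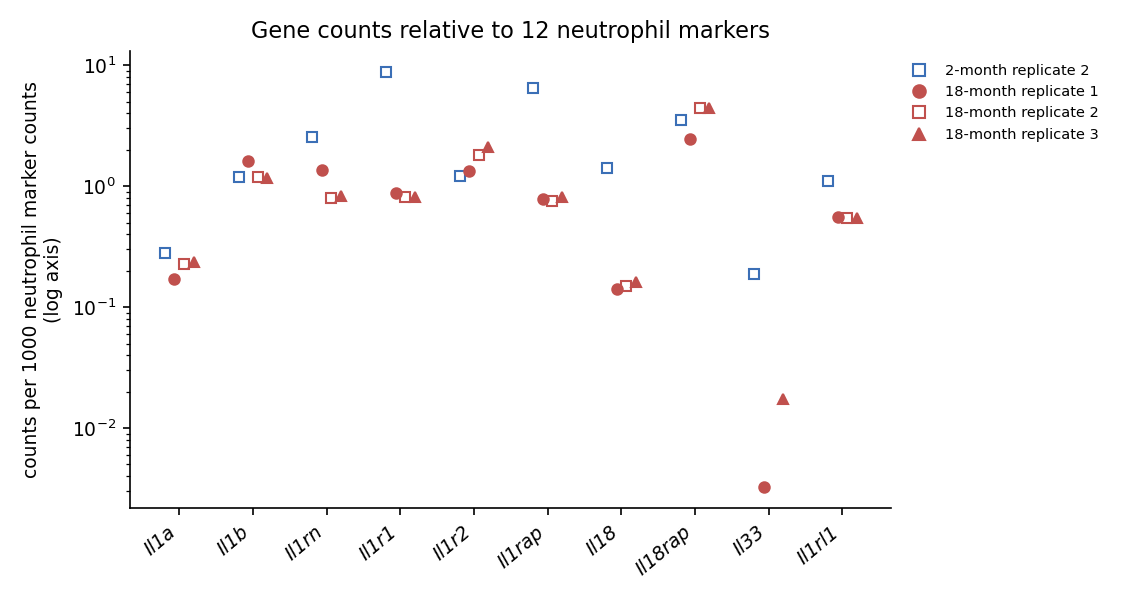
Counts of each member per 1000 counts of 12 neutrophil markers (log axis) in 2-month replicate 2 (open blue squares) and the 3 libraries of 18-month cartilage (red), with the 0 of *Il33* in 18-month replicate 2 left out. *Il1b* lies at 1.18 in 2-month replicate 2 and at 1.17 to 1.62 at 18 months, whereas *Il1r1* lies at 8.87 and at 0.812 to 0.877. The other 2-month libraries, in which the markers were scarce, are not shown.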

How the data were processed

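Polyadenylated RNA of 6 cartilage libraries was sequenced from both ends with strand-specific libraries carrying molecular identifiers. The deposited table holds unnormalized whole-number counts, and FPKM values that the authors scaled by transcript length and library size. Per the submitters' processing notes, cutadapt 1.9, HISAT2 2.0.4, UMI-tools, StringTie 1.3.4d, DESeq2 and edgeR were used, and the build and the strand setting of counting are not given in the sources used here. Positions are those of the deposited table, and 9 of the 10 members have the same position in GENCODE M21 (GRCm38), the exception being *Il1rl1*. Libraries of 48171507 to 59085179 counts were kept apart, since replicates of an age differed by 6.32 to 48.8 times the counting noise (median chi-square over its expectation). Library columns were matched to ages by their names, Young for 2 months and Aged for 18 months.

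The test of the counts used edgeR 4.0.16 under R 4.3.3 (TMM, filterByExpr, quasi-likelihood test, no replicate block) over all 20397 genes that passed the filter. SEs were obtained by dividing each log2 fold change by √F. Ratios used FPKM + 0.1. Alternatives were other size factors, total counts, TMM without the 100 most abundant genes, no filter, DESeq2 1.42.0, limma 3.58.1 on log2(FPKM + 0.1), log2(FPKM + 1) and log2(TPM + 0.1), a replicate block and leaving out each library. Fits were tested on simulated data.

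The 10 members, 4 pathway lists and 10 marker lists were chosen with earlier results of these data known. Every family gene could be named. Of the other pathway lists up to 3 called genes in each direction were named, by size of change and from a mean of 1 FPKM upward, with the most abundant gene. Protein sequences were not used here. Of the genes most like the members, 1 is not reported here.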

Additional observations from a re-analysis of the deposited data

How the results depend on the processing

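No member's log2 fold change and no ratio changed sign under any alternative tried, while the balance of rises and falls over all genes did. The number of members called higher, 5 with all libraries, ranged from 2 to 6 when 1 library was left out and from 4 to 6 under the other alternatives. *Il18rap* was lost with total counts alone (adjusted p = 0.054), with TMM without the 100 most abundant genes (0.0511) and with no filter (0.0697), and *Il1rn* was gained in the 3 limma fits (0.0027 to 0.0291). The family list, with 7 genes called, had 11 in limma on log2(FPKM + 0.1), on log2(FPKM + 1) and on log2(TPM + 0.1), and 4 to 11 with 1 library left out. With 1 library left out the processing list had 4 to 12 genes called and the target list 6 to 13, against 8 and 10. Over all genes the share called was 24.4% to 41.5% in the limma fits and 26.4% to 44.6% with 1 library left out. Over all genes, 3047 were higher and 4354 lower, so 41.2% of calls were rises. Limma on log2(FPKM + 1) gave 3041 higher and 2217 lower, so 57.8% rises, and limma on log2(FPKM + 0.1) 50.6%. Leaving out 1 library gave 2095 to 5007 higher, and without 2-month replicate 2 there were 4576 lower, so 52.2% rises. The median over all genes, −0.02, was 0.03 with median-of-ratios size factors and 0.05 with total counts. The cause of these shifts was not tested. The log2 difference of *Il33*/*Il1rl1* was −6.08 with 0.01 added and −1.84 with 1 added, against −4.21. The lowest 2-month values of *Il1r2* and *Il18rap* rest on 4 counts each, and *Il33* had 0 to 43 counts a library with a wide spread between libraries.

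Libraries of the same replicate number were little alike, and whether they shared a litter, batch or day was not tested. Same-numbered libraries had correlations of 0.034, 0.044 and −0.024 in their deviations from the means of their age over 20397 genes. With the replicate block 2523 genes were higher and 3509 lower, and 5 members were higher and 0 lower.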

Other observations

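Likeness to each member with a mean of at least 1 FPKM was measured as Pearson's r of log2(FPKM + 0.1) over the 6 libraries, across 14009 genes with a mean of at least 1 FPKM. The 6 points share their ages and 1 library that stands apart, so the values are a description with no test. Closest to *Il1a* were *Cd47*, *Gm1968* and *Rab27b*, with r of 0.9999, 0.9998 and 0.9997. *Cd47*, which encodes a surface signal that inhibits phagocytosis, had 12.4, 19.4 and 12.6 FPKM at 2 months and 52.1, 62.6 and 62.5 FPKM at 18 months. Closest to *Il1b* were *Mfsd13a*, *9830166K06Rik* and *Tmem181b-ps*, to *Il1r2* *Ccdc125*, *Dmtn* and *Dera*, and to *Il18rap* *Ndufa10*, *Zfp367* and *Ncapg2*. Closest to *Il1rl1* were *Hmgb2*, *Cd200r1* and *Pstpip2*. *Hmgb2*, a chromatin protein of dividing cells, had 12.4, 58.6 and 13.6 FPKM at 2 months and 280.4, 286 and 288 FPKM at 18 months.

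Among the genes closest to *Il1rn* were *Nup93* and *Cmah*. For *Il1rap* the closest were *Pctp*, *Asah1* and *Fam122b*, and for *Il18* *Mindy1*, *Lgals4* and *Gm26770*. *Il1r1* had its closest genes in *1500009L16Rik*, *Rps21* and *Qdpr*, with r of 0.993, 0.985 and 0.985, and *1500009L16Rik* had 2.63, 0.404 and 1.95 FPKM at 2 months and 0.562, 0.591 and 0.528 FPKM at 18 months.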
